A study of Rattus norvegicus with 12 samples.

Results

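The inflammasome and IL-1 genes described here were 10 genes followed through the liver transcriptome of Sprague Dawley rats, chosen by symbol from the gene table: the sensors Nlrp3, Nlrp12 and Naip6, the adaptor Pycard, the protease Casp1, the pore former Gsdmd, the cytokines Il1b and Il18, and the membrane channels P2rx7 and Panx1. They were chosen with earlier results of these data known. They are 10 of 40154 genes in the table, and all 10 passed the filter on low counts that left 15916 genes for testing. RNA was sequenced from the livers of 4 groups with 3 libraries each. HFD+SAMC rats received a high fat diet and S-allylmercaptocysteine (SAMC, an organosulfur compound of aged garlic), HFD rats the high fat diet without it, Control+SAMC rats the normal diet with SAMC, and Control rats the normal diet without it. Neither the amount and length of treatment nor the sex and age of the rats is in the labels, which also do not say that the libraries of a group are separate animals, so the p-values measure the spread between these libraries, which may be technical. The study's title names an effect of SAMC on inflammation through NLRP3 and NLRP6 in fatty liver, which is the question these genes bear on.

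Inflammasomes are cytosolic protein platforms that form when a sensor detects a microbial product or cell damage. The sensor recruits the adaptor ASC, ASC gathers pro-caspase-1, and active caspase-1 cleaves pro-IL-1β, pro-IL-18 and gasdermin D, whose fragments open pores in the plasma membrane. In liver the components are found mostly in Kupffer cells and recruited myeloid cells, and transcription of the sensor and of pro-IL-1β is a separate priming step, so transcript levels do not measure assembly or cleavage.

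In this bulk tissue the transcripts were present at low to moderate levels. Per length of transcript, in RPKM (the authors' values, reads scaled by transcript length and library total), Gsdmd had the highest mean over the 12 libraries at 12.02 RPKM, followed by Il1b at 4.89, Nlrp12 at 4.36, Il18 at 4.17, Pycard at 3.22, P2rx7 at 2.66, Casp1 at 2.65, Panx1 at 2.08, Nlrp3 at 0.792 and Naip6 at 0.294 RPKM. The ranges of neighbours in that order overlapped over the 12 libraries in every case. Within each single library, however, Gsdmd was above Il1b, Panx1 above Nlrp3, and Nlrp3 above Naip6. The order of the other neighbours differed between libraries and is not resolved by these means. The lowest read count of any of the 10 genes in any library was 45, for Naip6 and for Pycard, so no gene was absent from a library. In bulk liver, fewer cells of a type and less RNA per cell cannot be told apart. Nlrp6, the other sensor of the title, had 0 counts in all 12 libraries. A count of 0 allows up to 3 counts, or 0.0657 CPM (counts scaled to 1e+06 per library) in the library with the lowest total. This bound uses the raw total, without the scaling between libraries behind the other CPM, and covers counting error only.

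The libraries held 45680738 to 61937544 counts. Fga, the fibrinogen alpha chain made by hepatocytes, split them: 4 libraries (HFD replicates 2 and 3, Control+SAMC replicate 1 and Control replicate 2) had 3378 to 3822 CPM, and the other 8 had 8221 to 18523 CPM. HFD+SAMC replicate 3 stood apart in skeletal muscle transcripts, with 439.7 CPM of Acta1 against at most 0.135 CPM in the other 11 libraries. The authors' RPKM for 1 gene used a transcript length of 3377 bases in Control and HFD+SAMC libraries and of 4432 bases in Control+SAMC and HFD libraries. Each comparison of 2 groups below therefore crosses these library sets, except where a within-set value is given, and the interaction of diet and SAMC cannot be told apart from the difference between the sets.

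None of the 10 genes passed an adjusted p of 0.05 (edgeR's quasi-likelihood test, Benjamini-Hochberg over 15916 genes) in any of 7 comparisons. Over all genes that threshold called 0.145% in HFD against Control, 0.0503% in HFD+SAMC against HFD, 0.119% in Control+SAMC against Control, 0.0628% in HFD+SAMC against Control+SAMC, 0.421% for diet averaged over SAMC, 0.22% for SAMC averaged over diet and 0.145% for the interaction. The group means and library values are described below with that in mind, and every fold change is from the same fit of all 12 libraries.

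**Figure D1:**
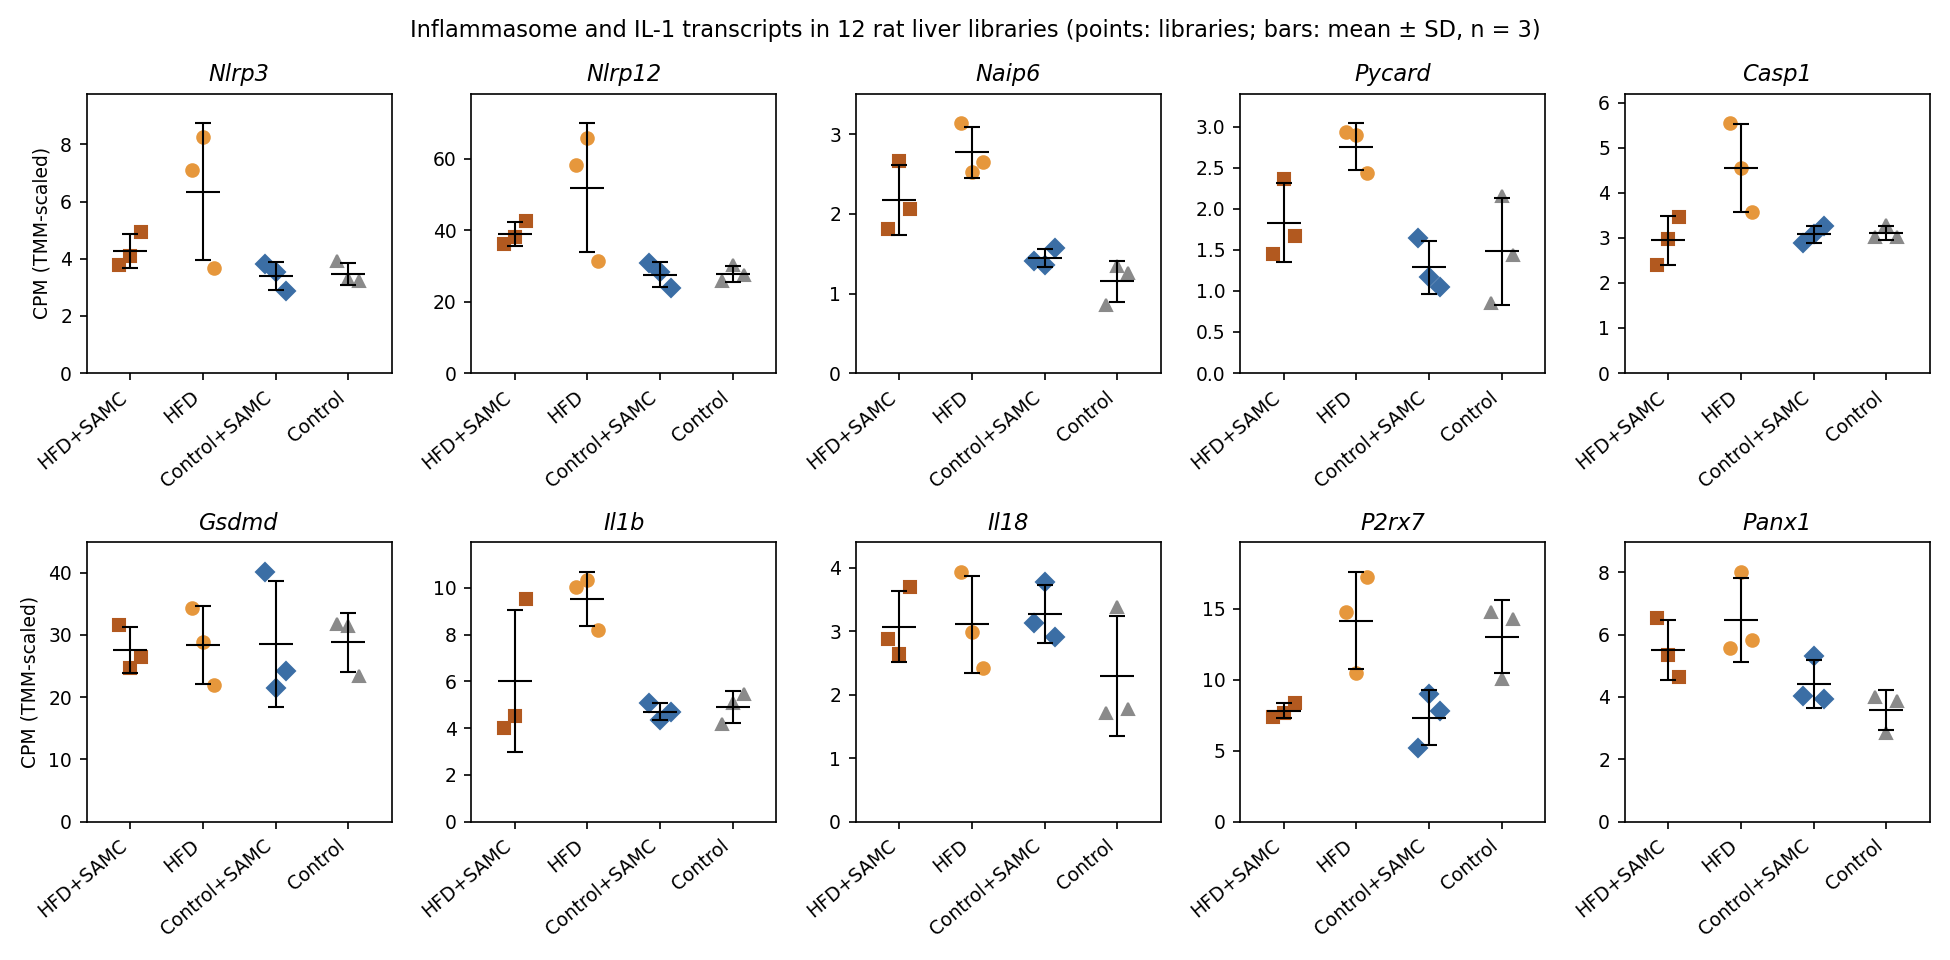
Level of each of the 10 genes in CPM after TMM scaling (y axis, from 0) in the 12 libraries, by group (x axis); points are libraries and bars the mean ± SD of 3. P2rx7 is lower in all 6 SAMC libraries than in the 6 without SAMC, Nlrp12 and Naip6 are higher in all 6 high fat diet libraries than in the 6 on the normal diet, and Gsdmd shows no order by group.

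The positions of the genes in the deposited table, whose build is not given in the sources used here, were chr10:45884324-45918290 for Nlrp3, chr1:64506750-64543908 for Nlrp12, chr2:30377505-30418578 for Naip6, chr1:199438029-199439062 for Pycard, chr8:2605743-2614637 for Casp1, chr7:116889147-116894134 for Gsdmd, chr3:121876256-121882637 for Il1b, chr8:55009666-55016286 for Il18, chr12:39353613-39396042 for P2rx7 and chr8:13567185-13606040 for Panx1. For 3 genes whose libraries separate the groups below, and for Nlrp3, the 250 bases upstream of the start are shown, from RefSeq on the build GRCr8 (a different build from the positions above), read 5′ to 3′ on the strand of the gene. Capitals mark matches to any of 5 motifs of factors of myeloid and inflammatory genes.

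Nlrp3 (chr10:44827848-44828097, plus strand): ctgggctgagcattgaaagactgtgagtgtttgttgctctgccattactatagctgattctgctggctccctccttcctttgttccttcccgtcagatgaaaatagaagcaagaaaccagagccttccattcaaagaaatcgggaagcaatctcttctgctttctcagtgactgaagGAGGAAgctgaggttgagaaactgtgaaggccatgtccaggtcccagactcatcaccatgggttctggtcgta

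Nlrp12 (chr1:74847972-74848221, plus strand): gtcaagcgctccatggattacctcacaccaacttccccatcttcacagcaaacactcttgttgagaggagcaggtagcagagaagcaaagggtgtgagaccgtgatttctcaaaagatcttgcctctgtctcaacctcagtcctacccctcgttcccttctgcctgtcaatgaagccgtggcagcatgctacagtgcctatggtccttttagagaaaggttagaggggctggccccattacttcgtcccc

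Naip6 (chr2:33279613-33279862, minus strand): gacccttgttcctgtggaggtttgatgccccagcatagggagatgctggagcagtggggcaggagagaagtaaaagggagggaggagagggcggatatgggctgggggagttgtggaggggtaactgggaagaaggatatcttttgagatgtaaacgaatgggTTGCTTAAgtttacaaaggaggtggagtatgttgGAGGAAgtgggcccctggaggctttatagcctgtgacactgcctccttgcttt

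P2rx7 (chr12:39594923-39595172, minus strand): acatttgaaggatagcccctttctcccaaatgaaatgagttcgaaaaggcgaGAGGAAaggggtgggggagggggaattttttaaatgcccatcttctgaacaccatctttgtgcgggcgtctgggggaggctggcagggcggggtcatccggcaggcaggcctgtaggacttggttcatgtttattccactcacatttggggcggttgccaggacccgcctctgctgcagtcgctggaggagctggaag

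Both strands were searched in the 9 members with a RefSeq promoter and in all 33469 promoters of the same length. GAGGAA, the core bound by PU.1 and other ETS factors, was found in 4 of 9 (Nlrp3, Naip6, Casp1, P2rx7) and in 23.3% of all promoters. TTGCNNAA, the C/EBP pattern, was found in 1 of 9 (Naip6) and in 9.22% of all. The interferon-stimulated response element, searched as a pair of GAAA half-sites 2 bases apart, was found in 1 of 9 (Casp1) and in 3.41% of all. TGANTCA, the AP-1 site, and the κB consensus were found in 0 of 9, and in 6.34% and 6.33% of all. The matches in capitals did not overlap each other. AANNGAAA, a shorter interferon factor core that overlaps the longer form and was added after its result was seen, was found in 4 of 9 (Casp1, Il1b, Il18, P2rx7) and in 23.3% of all promoters, and is not in capitals. A match is a description of these letters, and their absence says nothing about the factor.

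Among the sensors, Nlrp3, which responds to potassium efflux and cell damage, had 3.77, 4.11 and 4.92 CPM in HFD+SAMC libraries, 7.11, 8.26 and 3.67 CPM in HFD libraries, 3.80, 3.54 and 2.86 CPM in Control+SAMC libraries, and 3.91, 3.28 and 3.23 CPM in Control libraries. Only HFD replicates 2 and 3 stood above the rest, and HFD replicate 4 lay within the range of Control. The log2 fold change was 0.87 ± 0.27 (SE) in HFD against Control (adjusted p = 0.274) and -0.57 ± 0.27 in HFD+SAMC against HFD (adjusted p = 0.479). HFD replicates 2 and 3 are also 2 of the 4 libraries with low Fga. With those 4 left out, an alternative chosen after seeing the data, the log2 fold change of Nlrp3 was 0.04 ± 0.32 in HFD against Control and 0.22 ± 0.30 in HFD+SAMC against HFD, with 1 HFD library whose spread is taken from the other groups. The part of whatever lowers Fga in the result was not tested.

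Nlrp12, a sensor of the same family described in mouse as a brake on NF-κB signalling, had 36.1, 38.0 and 42.7 CPM in HFD+SAMC libraries, 58.3, 65.7 and 31.4 CPM in HFD libraries, 30.8, 28.2 and 23.7 CPM in Control+SAMC libraries, and 25.7, 30.2 and 27.3 CPM in Control libraries. All 6 high fat diet libraries lay above all 6 normal diet libraries, although HFD replicate 4 did so narrowly. Its log2 fold change was 0.90 ± 0.22 in HFD against Control (adjusted p = 0.176), 0.50 ± 0.22 in HFD+SAMC against Control+SAMC (adjusted p = 0.438) and 0.70 ± 0.16 for diet averaged over SAMC (adjusted p = 0.0824). Without the 4 low-Fga libraries the averaged value was 0.42 ± 0.11 (adjusted p = 0.228) and that of HFD against Control was 0.24 ± 0.18. Without HFD replicate 4 they were 0.83 (adjusted p = 0.00473) and 1.16 (adjusted p = 0.0116), the highest values with any single library left out. Over all such fits the averaged value ranged from 0.60 to 0.83 (adjusted p from 0.00473 to 0.212). That of HFD against Control ranged from 0.69 to 1.16 (adjusted p from 0.0116 to 0.534). Leaving out HFD replicate 4 also left only low-Fga libraries in the HFD group, and the part of low Fga in those values was not tested. Annotated overlaps with the locus (the Mir290 cluster and 2 vomeronasal receptor genes) held from 0 to 715 counts over the 12 libraries, against 24346 for Nlrp12.

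Naip6, of the NAIP family whose mouse members bind bacterial flagellin or secretion proteins and act with Nlrc4, had 1.81, 2.67 and 2.06 CPM in HFD+SAMC libraries, 3.14, 2.53 and 2.66 CPM in HFD libraries, 1.41, 1.36 and 1.57 CPM in Control+SAMC libraries, and 0.858, 1.35 and 1.26 CPM in Control libraries. Again every high fat diet library lay above every normal diet library, and within the normal diet the Control+SAMC libraries lay above the Control libraries. The latter margin was narrow, with 1.36 CPM (63 counts) in Control+SAMC replicate 2 and 1.35 CPM (55 counts) in Control replicate 2. The log2 fold change of Naip6 was the largest of the 10 genes in HFD against Control, 1.27 ± 0.26 (adjusted p = 0.102), and was 0.93 ± 0.18 for diet averaged over SAMC (adjusted p = 0.0511). Without the 4 low-Fga libraries the values were 1.33 ± 0.42 and 0.95 ± 0.27. Within the library sets, it was 0.92 ± 0.26 in HFD+SAMC against Control and 0.94 ± 0.26 in HFD against Control+SAMC. Reads could be split between Naip6 and its close copy Naip5, so its counts are uncertain.

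Both Nlrp12 and Naip6 therefore separated the 6 high fat diet libraries from the 6 normal diet libraries without overlap, 2 of 10 genes, where 0.578% of all genes were higher in the same way. As the 10 genes were chosen with earlier results of these data known, this is a description.

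The adaptor and the protease were highest in HFD libraries, but did not separate the 2 diets under SAMC. Pycard, which encodes the adaptor ASC, had 1.45, 2.37 and 1.67 CPM in HFD+SAMC libraries, 2.94, 2.90 and 2.43 CPM in HFD libraries, 1.65, 1.17 and 1.04 CPM in Control+SAMC libraries, and 0.858, 2.15 and 1.44 CPM in Control libraries. The HFD libraries lay above all others, by a narrow margin over HFD+SAMC replicate 2. Fitted over all libraries, its log2 fold change was 0.90 ± 0.34 in HFD against Control (adjusted p = 0.371) and -0.59 ± 0.34 in HFD+SAMC against HFD (adjusted p = 0.565). Casp1, the protease caspase-1 itself, had 2.39, 2.98 and 3.47 CPM in HFD+SAMC libraries, 5.54, 4.54 and 3.57 CPM in HFD libraries, 2.89, 3.09 and 3.27 CPM in Control+SAMC libraries, and 3.01, 3.28 and 3.03 CPM in Control libraries. The HFD libraries again lay above all others, and HFD replicate 4 exceeded HFD+SAMC replicate 3 by little. For Casp1 the log2 fold change was 0.55 ± 0.22 in HFD against Control (adjusted p = 0.387) and -0.63 ± 0.21 in HFD+SAMC against HFD (adjusted p = 0.345). Without the 4 low-Fga libraries these values were 0.24 ± 0.33 and -0.27 ± 0.31, while those of Pycard were 1.08 ± 0.47 and -0.41 ± 0.44.

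Gsdmd, the pore former, had nearly equal means in the 4 groups. It averaged 27.6 ± 3.6 CPM in HFD+SAMC, 28.4 ± 6.2 CPM in HFD, 28.6 ± 10.1 CPM in Control+SAMC and 28.8 ± 4.8 CPM in Control libraries (SD, n = 3 each). The fold change on the log2 scale was -0.02 in HFD against Control, with a 95% interval of -0.54 to 0.50, and -0.04 in HFD+SAMC against HFD, with an interval of -0.56 to 0.48. Differences within these bounds remain possible, and the bounds are not the smallest difference that the test could call.

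Of the cytokines, Il1b had 4.01, 4.50 and 9.52 CPM in HFD+SAMC libraries, 10.04, 10.3 and 8.18 CPM in HFD libraries, 5.07, 4.36 and 4.68 CPM in Control+SAMC libraries, and 4.15, 5.09 and 5.45 CPM in Control libraries. The 3 HFD libraries were above both normal diet groups, and of the HFD+SAMC libraries only replicate 3, the one high in muscle transcripts, reached their level. Il1b had a log2 fold change of 0.96 ± 0.28 in HFD against Control (adjusted p = 0.25) and -0.66 ± 0.28 in HFD+SAMC against HFD (adjusted p = 0.43). Without the 4 low-Fga libraries these values were 0.76 ± 0.48 and -0.44 ± 0.45. Without HFD+SAMC replicate 3 the value of HFD+SAMC against HFD was -1.16 (adjusted p = 0.141), and without HFD+SAMC replicate 1 it was -0.44 (adjusted p = 0.703). The part of the muscle transcripts in the result was not tested. Il18, which unlike Il1b is held to be made by many cell types without priming, averaged 3.07 ± 0.56 CPM in HFD+SAMC, 3.11 ± 0.77 CPM in HFD, 3.27 ± 0.46 CPM in Control+SAMC and 2.29 ± 0.94 CPM in Control libraries (SD, n = 3 each). Its groups overlapped, and its log2 fold change was 0.44 ± 0.30 in HFD against Control and -0.02 ± 0.30 in HFD+SAMC against HFD. In HFD against Control single libraries moved it by over 1.5 times: it was 0.83 without Control replicate 2 (adjusted p = 0.265), 0.27 without Control replicate 1, 0.28 without Control replicate 3 and 0.24 without HFD replicate 2.

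P2rx7, the ATP-gated channel whose opening lets potassium out and is a classic trigger of Nlrp3, was lower in the SAMC libraries on both diets. It had 7.33, 7.68 and 8.37 CPM in HFD+SAMC libraries, 14.8, 10.5 and 17.3 CPM in HFD libraries, 5.19, 9.01 and 7.77 CPM in Control+SAMC libraries, and 14.8, 10.1 and 14.2 CPM in Control libraries. All 6 SAMC libraries lay below all 6 libraries without SAMC, 1 of 10 genes, where 0.383% of all genes were lower in the same way. This too is a description of genes chosen with earlier results known. P2rx7 had a log2 fold change of -0.86 ± 0.23 in HFD+SAMC against HFD (adjusted p = 0.262), -0.83 ± 0.24 in Control+SAMC against Control (adjusted p = 0.26) and -0.85 ± 0.17 averaged over diet (adjusted p = 0.0707). The interaction was -0.03 ± 0.33, so no difference between the diets was detected, with a 95% interval of -0.75 to 0.69. Within the library sets it was -0.74 ± 0.23 in HFD+SAMC against Control and 0.95 ± 0.24 in HFD against Control+SAMC. Without the 4 low-Fga libraries the averaged value was -0.97 ± 0.12 (adjusted p = 0.0172). In HFD against Control it was 0.12 ± 0.23 (adjusted p = 0.902).

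Panx1, the pannexin channel that releases ATP, was higher in HFD than in Control libraries. It had 6.53, 5.36 and 4.64 CPM in HFD+SAMC libraries, 5.58, 8.01 and 5.84 CPM in HFD libraries, 4.03, 5.31 and 3.93 CPM in Control+SAMC libraries, and 4.00, 2.84 and 3.88 CPM in Control libraries. The HFD libraries lay above the Control libraries, while HFD+SAMC and Control+SAMC overlapped. The log2 fold change was 0.86 ± 0.23 in HFD against Control (adjusted p = 0.203) and -0.23 ± 0.22 in HFD+SAMC against HFD (adjusted p = 0.749). Without the 4 low-Fga libraries the first was 0.56 ± 0.31. Its locus overlaps Med17 on the same strand, which held 4388 counts over the libraries against 3329 for Panx1, so reads of the overlap cannot be assigned.

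**Figure D2:**
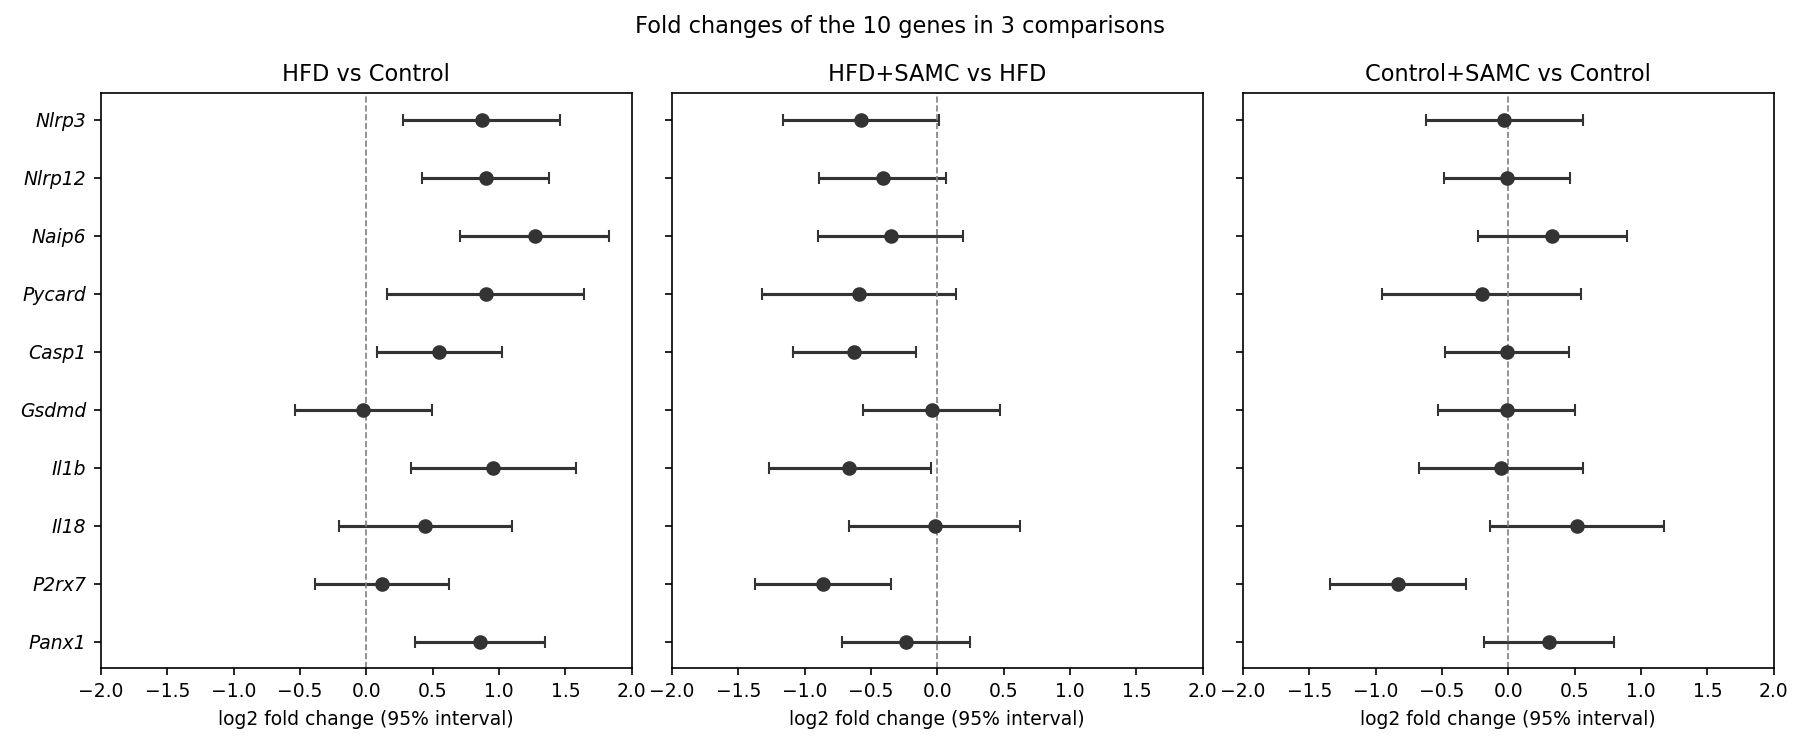
Log2 fold changes with 95% intervals (x axis) of the 10 genes (y axis) in HFD against Control, HFD+SAMC against HFD and Control+SAMC against Control. In HFD against Control 9 of 10 are positive, in HFD+SAMC against HFD all 10 are negative, and P2rx7 alone has an interval below 0 in the last panel.

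Over the 10 genes, 9 were positive in HFD against Control, with a median log2 fold change of 0.863 against -0.00468 over all genes, and 7 had an unadjusted p under 0.05 and were higher, where 5.91% of all genes did. All 10 were negative in HFD+SAMC against HFD, with a median of -0.493 against 0.00335 over all genes, and 3 (Casp1, Il1b, P2rx7) had an unadjusted p under 0.05 and were lower, where 5.34% of all genes did. These 2 comparisons share the HFD libraries, so a high HFD value moves both. The members were chosen with earlier results of these data known, so their counts beside shares of all genes are descriptions only. With the 4 low-Fga libraries left out the medians were 0.356 in HFD against Control and -0.176 in HFD+SAMC against HFD, where 6 of 10 were negative. In Control+SAMC against Control, 7 were negative with a median of -0.0116 against -0.0118 over all genes, and P2rx7 was the 1 gene lower at an unadjusted p under 0.05, where 4.61% of all genes were. With SAMC on both diets, in HFD+SAMC against Control+SAMC, 7 were positive with a median of 0.322, and 2 (Nlrp12, Naip6) were higher at that level, where 5.62% of all genes were. Averaged over SAMC, 6 were higher with the high fat diet at an unadjusted p under 0.05, against 7.3% of all genes. Averaged over diet, 1 was lower with SAMC at that level, against 6.11%. The interaction was negative for all 10, with a median of -0.538, and none had an unadjusted p under 0.05.

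Libraries of the groups did not overlap for 6 genes in HFD against Control, all higher (Nlrp12, Naip6, Casp1, Pycard, Il1b, Panx1), where 8.27% of all genes were higher in that way. For HFD+SAMC against HFD it was 3 genes, all lower (Casp1, Pycard, P2rx7), where 9.41% were lower. In Control+SAMC against Control it was P2rx7, lower, where 6.51% were, and Naip6, higher, where 7.03% were. The margin for Naip6 there was narrow. For HFD+SAMC against Control+SAMC it was Nlrp12 and Naip6, higher, where 9.27% were.

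DESeq2 called more genes, members included. It called Naip6 (adjusted p = 0.000517), Nlrp12 (adjusted p = 0.0187) and Panx1 (adjusted p = 0.0268) in HFD against Control, against 2.07% of genes with an adjusted p. For HFD+SAMC against HFD it called P2rx7 (adjusted p = 0.0434), against 1.6%. For diet averaged over SAMC it called the same 3 genes as in HFD against Control, against 3.39%. For SAMC averaged over diet it called P2rx7 (adjusted p = 0.00051), against 2.75%.

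**Figure D3:**
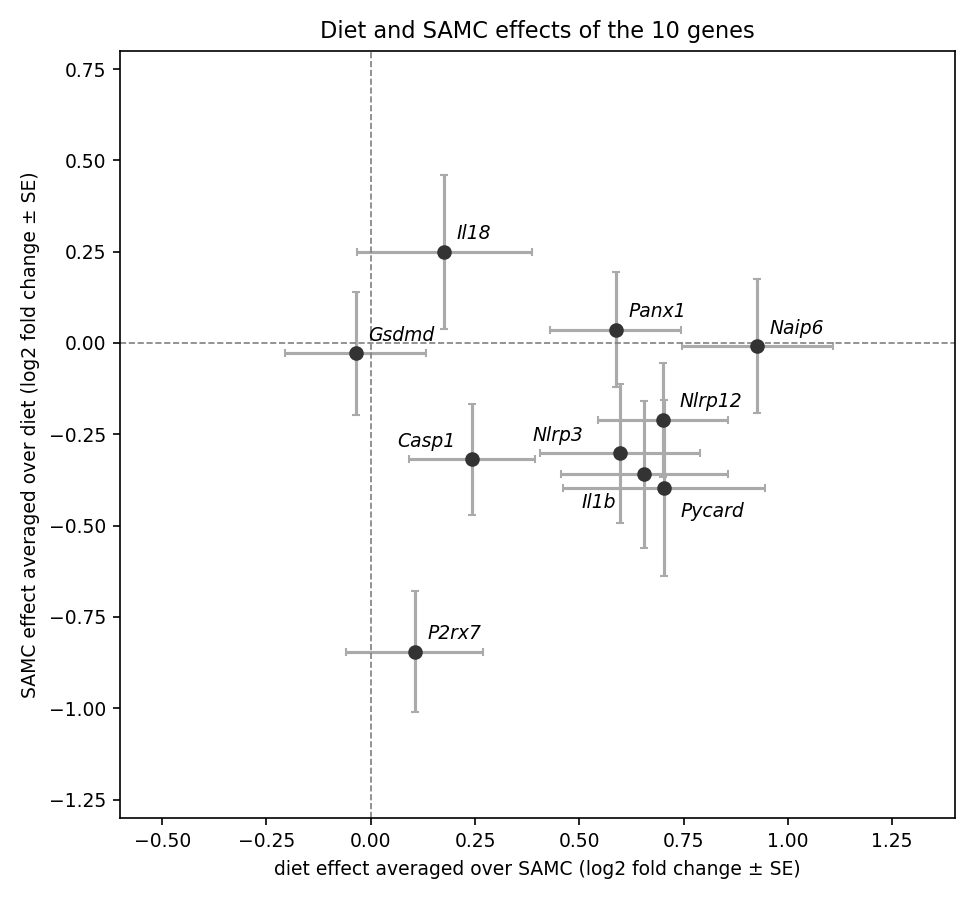
SAMC effect averaged over diet (y axis) against diet effect averaged over SAMC (x axis), both as log2 fold change ± SE, for the 10 genes. P2rx7 lies apart at -0.85 on the SAMC axis, Naip6 lies farthest along the diet axis at 0.93, and Gsdmd lies near 0 on both.

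Markers of other cell types were measured in the same libraries. For Kupffer cells and macrophages, the summed level of 17 markers was 987 to 1169 CPM in HFD+SAMC, 1149 to 1444 CPM in HFD, 857 to 1116 CPM in Control+SAMC and 723 to 1201 CPM in Control libraries, and none of the 17 was at 0 in any library. Of the 17, 16 were positive in HFD against Control (median log2 fold change 0.47) and 16 were negative in HFD+SAMC against HFD (median -0.323), with 0 passing the test in either. Across the 12 libraries, where each point takes both levels from 1 library and so shares its scaling and composition, Pearson's r of the log2 level with that sum was 0.843 for Pycard, 0.791 for Naip6 and 0.768 for Nlrp12, and 0.195 for P2rx7 and -0.169 for Gsdmd, as a description. Dendritic cell markers, 7 in number, were positive in 6 in HFD against Control (median 1.16) and negative in 6 in HFD+SAMC against HFD (median -0.375). Their sum was 9.76 to 11.3 CPM in HFD+SAMC, 11.9 to 14.8 CPM in HFD, 7.60 to 10.8 CPM in Control+SAMC and 7.41 to 10.4 CPM in Control libraries, with Siglech at 0 in 1 library. One of them, Itgax, the integrin CD11c, rose with the high fat diet averaged over SAMC, by 1.39 ± 0.24 on the log2 scale (edgeR, adjusted p = 0.0303). Of 12 hepatocyte markers 11 were negative in HFD against Control (median -0.585) and 7 in HFD+SAMC against HFD (median -0.0718), with 0 passing. The part of cell content in the members' differences was not tested. Neutrophil markers were at 7.21 to 21.6 CPM in HFD+SAMC and 12.2 to 13.1 CPM in HFD libraries, and at 5.79 to 14.9 CPM in Control+SAMC and 7.27 to 16.3 CPM in Control libraries, with Cxcr1 at 0 in all 12. Of 8 tested neutrophil markers 6 were negative in HFD against Control (median -0.824), opposite to most members. In HFD+SAMC against HFD 6 were positive (median 0.941), again opposite to the members, with 0 passing in either. The list includes Fcgr3a, its highest marker at 1.64 to 9.18 CPM, whose pattern was close to that of the member Pycard (r = 0.973). No other marker of that list exceeded 5.96 CPM (S100a9). T and NK cell markers, of which 10 of 12 were tested, were negative in all 10 for SAMC averaged over diet, the direction of P2rx7, with 0 passing, and their sum was 49.1 to 50.9 CPM in HFD+SAMC, 45.3 to 66.6 CPM in HFD, 31.2 to 44.5 CPM in Control+SAMC and 33.3 to 49.0 CPM in Control libraries. Cd4 alone was at 26.4 to 50.6 CPM, and no other marker of that list exceeded 8.12 CPM (Prf1), so this sum largely follows Cd4. Cd3e, Cd3d and Cd3g of that list reached at most 0.83, 0.381 and 0.609 CPM, so the sum says little about them. Which cells the Cd4 transcripts came from was not tested. Monocyte markers, whose sum had r = -0.687 with P2rx7, were at 57.1 to 68.6 CPM in HFD+SAMC, 32.6 to 50.3 CPM in HFD, 49.4 to 83.2 CPM in Control+SAMC and 33.1 to 56.3 CPM in Control libraries. Cd14 alone was at 22.4 to 75.7 CPM, and no other marker of that list exceeded 5.56 CPM (Itgam). The sum and its r therefore largely follow Cd14. Of 7 tested monocyte markers 5 were positive in HFD against Control (median 0.73) and 5 in HFD+SAMC against HFD (median 0.159), with 0 passing.

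**Figure D4:**
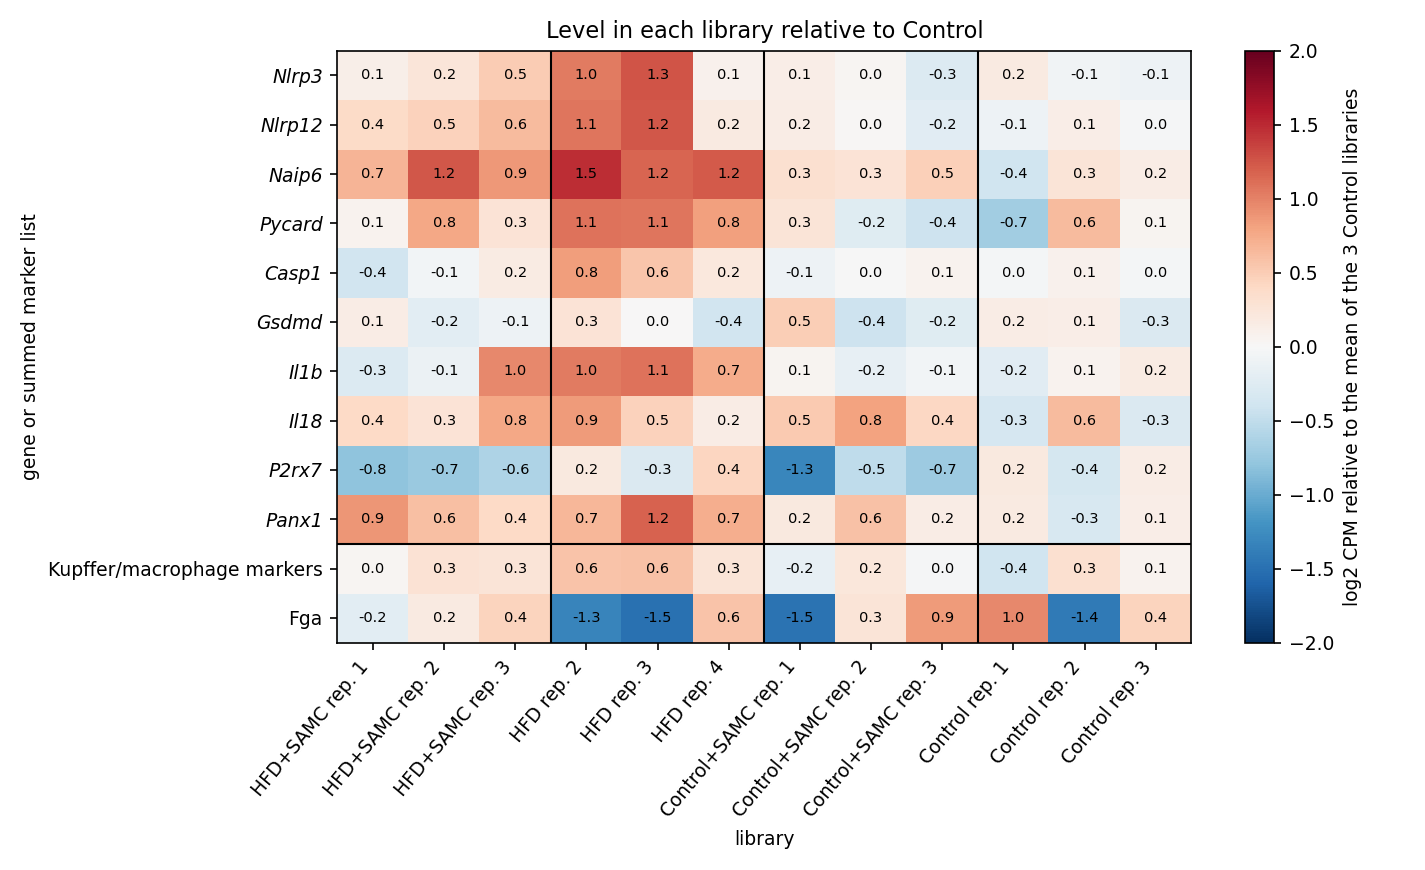
Log2 level of the 10 genes, of the summed Kupffer cell and macrophage markers and of Fga in each library, relative to the mean of the 3 Control libraries (colour scale from -2 to 2). HFD replicates 2 and 3 are highest for Nlrp3 and Nlrp12 and low for Fga, as are Control+SAMC replicate 1 and Control replicate 2 for Fga, and P2rx7 is below Control in all 6 SAMC libraries.

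The 3 genes with the most similar pattern over the 12 libraries were taken for each member, by Pearson's r of the log2 level. Nlrp3 was closest to Nlrp12 (r = 0.953, Spearman's rho 0.825, and r = 0.816 without the 2 libraries farthest from the median), then to Hdc, histidine decarboxylase (0.902), and Blmh (0.901). Nlrp12 was closest to Klhl5 (r = 0.965), ahead of Nlrp3 and Gng2 (0.933). For Naip6 they were Inpp5d (0.933), Tbc1d1 (0.92) and C1qa (0.912), and for Pycard Fcgr3a (0.973) and Fcgr1a (0.941), immunoglobulin receptors of phagocytes, and Itgal (0.936). Casp1 was closest to Pla2r1 (0.878), Aif1 (0.866) and Hcls1 (0.864), and Gsdmd to Ptk2, the focal adhesion kinase (0.945), Phf14 (0.866) and Pdzk1 (0.861). For Il1b they were Lsp1 (0.915), Lcp1 (0.906) and Ap1s2 (0.899), and for Il18 Polr2a (0.88), Pnp (0.873) and Tmem164 (0.872). P2rx7 was closest to Mertk, a receptor by which macrophages take up dying cells (0.877), Inhbc (0.869) and Bmpr1a (0.869), and Panx1 to Ces2i (0.889), Kdelc2 (0.872) and Pik3c2b (0.858). Each is among the 3 highest of 10168 or 10169 candidates and so a description of these libraries. Without the 2 libraries farthest from the member's median, r ranged from 0.501 (Casp1 with Hcls1) to 0.952 (Pycard with Fcgr3a). For Nlrp3 it was then 0.648 with Hdc and 0.666 with Blmh, so part of such likeness rests on 2 libraries. Nlrp12 and Nlrp3 were similar also without the HFD libraries (r = 0.816, 9 libraries), whereas Nlrp3 and Casp1 were not (r = 0.762 in all 12, 0.00745 in the 9).

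No other gene of the pathway passed the test. Of 81 further genes in 5 lists, 78 were in the table, 66 were tested, and 0 passed in any of the 7 comparisons. Of the 66, 33 were positive and 33 negative in HFD against Control, with a median log2 fold change of 0.00528 there, and in HFD+SAMC against HFD 29 were positive and 37 negative. By list, all 7 tested sensors outside the 10 genes were positive in HFD against Control, with a median of 0.656, and all 7 were negative in HFD+SAMC against HFD, with a median of -0.375. Among these Nod2, a sensor of bacterial muramyl dipeptide, averaged 1.08 CPM in HFD+SAMC, 1.51 CPM in HFD, 0.638 CPM in Control+SAMC and 0.749 CPM in Control libraries. The other lists were mixed in HFD against Control. Adaptor, caspases and effectors had 3 positive and 6 negative (median -0.0694), and regulators 11 and 8 (0.0498). IL-1 family genes had 5 and 7 (-0.213), and IL-1 and TLR signalling 7 and 12 (-0.103). In HFD+SAMC against HFD their medians were 0.0893, -0.0545, 0.0304 and 0.0134, in that order. Il1a, the sister cytokine of Il1b, had a log2 fold change of 0.74 ± 0.34 in HFD against Control and -1.08 ± 0.34 in HFD+SAMC against HFD (adjusted p = 0.315). Cd14, the co-receptor for bacterial lipopolysaccharide, went the other way with SAMC, at 0.82 ± 0.18 averaged over diet (adjusted p = 0.0922). It is the same gene that leads the monocyte marker sum above.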

How the data were processed

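Liver RNA of 12 libraries was extracted with Trizol, depleted of ribosomal RNA (Ribo-Zero), made into NEBNext Ultra libraries and sequenced as 150 base paired reads, per the labels' protocols. Reads were trimmed with Trimmomatic 0.36, per the submitters' processing notes, aligned with HISAT2 and counted with HTSeq, per the labels. For the build, annotation and strand setting, the sources used here give nothing. The authors deposited a table of raw counts and RPKM per gene. RPKM, used only to order levels, equals the deposited count divided by length and total, with 1 of 40154 genes differing at a tolerance of 1e-06. No column of other samples was used.

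Counts were filtered with filterByExpr, TMM-scaled and tested with edgeR 4.0.16 in R 4.3.3, in 1 fit of all 12 libraries with 1 mean per group. Tests were two-sided, and p-values were Benjamini-Hochberg adjusted over 15916 genes (99.96% of counts), at a threshold of 0.05. CPM are counts scaled to 1e+06 per library after TMM scaling, except the bound for Nlrp6, which uses the raw total. A fold change is a ratio of 2 groups on the log2 scale. Pearson's r used log2 CPM with a prior count of 2. The likeness rule named 3 genes per member from tested genes whose mean log2 CPM reached 1. From each pathway list the 3 genes with the smallest p in HFD against Control and in HFD+SAMC against HFD could be named. Same-numbered libraries did not deviate together: of 15 pairs 2 had r over 0.1 (-0.221 to 0.248). Replicates were not copies of one library, since their counts differed beyond sampling noise. Alternatives were other scalings, no filter, DESeq2 1.42.0, limma-voom (limma 3.58.1), only the groups compared, a replicate block and leaving out libraries. The members and lists were chosen with earlier results of these data known. Promoter sequences are from RefSeq (GRCr8).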

Additional observations from a re-analysis of the deposited data

How the results depend on the processing

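None of the 10 genes passed in any comparison with edgeR on all libraries. In HFD against Control the count of members past the threshold was 2 with total count scaling (Nlrp12, Naip6; 0.854% of all genes), 3 with DESeq2 (2.07%), 1 with the replicate block (Nlrp12; 0.151%) and 0 to 1 with 1 library left out (1 without HFD replicate 4; 0.152%). In HFD+SAMC against HFD it was 1 with DESeq2 (1.6%). For diet averaged over SAMC it was 5 of 10 with total count scaling (Nlrp12, Naip6, Pycard, Il1b, Panx1; 3.6%), 3 with DESeq2 (3.39%), 1 with the replicate block (0.333%) and 0 to 1 with 1 library left out (1 without HFD replicate 4; 0.408%). For SAMC averaged over diet it was 1 (P2rx7) without a low-count filter (0.258%), with DESeq2 (2.75%) and with the 4 low-Fga libraries left out (0.246%), and 0 to 1 with 1 library left out (1 without Control replicate 2; 0.413%). limma-voom called 0 members. Total count scaling moved the median of all genes by 0.293 in HFD against Control and by 0.215 for diet averaged over SAMC. The cause of these gains was not tested.

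Of 1370 fold changes of the 10 genes under alternatives, 102 changed sign, all with a main value of at most 0.574 on the log2 scale. In HFD against Control these were P2rx7 (-0.11 with the replicate block, -0.049 to 0.30 with 1 library left out) and Gsdmd (0.27 with total count scaling, 0.28 with the replicate block, -0.18 to 0.13 with 1 library left out). In HFD+SAMC against HFD, Il18 ranged from -0.17 to 0.19 and Gsdmd from -0.20 to 0.12 with 1 library left out, and without the 4 low-Fga libraries Nlrp3 was 0.22, Nlrp12 0.31, Il18 0.35 and Gsdmd 0.33. Il1b in HFD+SAMC against Control+SAMC was -0.14 without HFD+SAMC replicate 3, against 0.35, and at most 0.58 without another library. For SAMC averaged over diet, without the 4 low-Fga libraries, Nlrp3 was 0.032 and Nlrp12 0.14. For the interaction, P2rx7 was 0.036 with limma-voom, 0.22 with the replicate block and -0.22 to 0.15 with 1 library left out, and Nlrp3 was 0.38 without the 4 low-Fga libraries.

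Replicate numbers do not pair the libraries, so the block is only an alternative. Counts over all genes depended on the tool: in HFD against Control 23 with edgeR, 315 with DESeq2, 136 with total count scaling and 4 to 53 with 1 library left out; in HFD+SAMC against HFD 8, 249, 7 and 1 to 27; in Control+SAMC against Control 19, 219, 22 and 3 to 23; in HFD+SAMC against Control+SAMC 10, 272, 5 and 1 to 45; for diet averaged over SAMC 67, 538, 573 and 30 to 130; for SAMC averaged over diet 35, 436, 43 and 13 to 68; and for the interaction 23, 128, 20 and 7 to 19. In the same order of comparisons, the replicate block gave 24, 11, 6, 2, 53, 10 and 9 genes, no low-count filter 29, 19, 26, 21, 67, 67 and 17, and the 4 low-Fga libraries left out 3, 0, 22, 25, 31, 42 and 2. With limma-voom they were 20, 14, 15, 12, 53, 31 and 15, and with only the groups compared 4, 23, 5 and 44 in the first 4 comparisons. With 3 libraries a group, the 95% intervals of single genes span about 1 on the log2 scale, which limits what could be detected.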
